A study of Mus musculus with 4 samples.

Results

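The mitosis and cytokinesis genes are 40 genes that drive a cell from G2 through chromosome segregation to the final split, taken by symbol from an expression table of 23997 genes. Their mRNA was measured by RNA sequencing in cultured lung endothelial cells, the cells that line the vessels of the lung, of C57BL/6 mice grown with 10% serum. An siRNA, a short RNA that lowers a chosen mRNA, was applied for 48 h, either a control siRNA or one targeting Nr3c1, the gene of the glucocorticoid receptor (GR), which is a transcription factor activated by steroids. Dexamethasone (DEX), a synthetic glucocorticoid, was present at 100 nM for 18 h or absent. Both siRNAs were studied with and without DEX, which makes 4 conditions, each represented by 1 column of the table. The submitters describe 3 replicates per condition, but not whether a column is 1 of them, a mean or a pool, so no value has a spread over replicates and no difference between 2 columns has a p-value. All 40 symbols were found, and all 40 reached 1 FPKM in every column. FPKM stands for fragments per kilobase of transcript, scaled for sequencing depth, so it is a level corrected for gene length and depth.

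The targeted mRNA, Nr3c1, stood at 14.4 and 14.3 FPKM in the control siRNA columns without and with DEX, and at 5.45 and 5.32 FPKM in the corresponding GR siRNA columns, which follows the labels. The columns summed to 537772 to 566610 FPKM, and the value of a single fragment in genes under 0.1 FPKM put their relative depth between 0.671 (control siRNA) and 1 (GR siRNA); read totals are unknown. All 10 endothelial markers were expressed, with Cdh5 at 384 to 436 FPKM and Pecam1 at 275 to 282 FPKM. Of the 12 fibroblast and mural markers 9 stayed below 1 FPKM in every column, as did 8 of 10 lung epithelial and 9 of 10 leukocyte markers, and Rgs5, Ptprc, Cd3e and Sftpa1 were listed at 0 throughout. Cd68, a lysosomal protein often used as a macrophage marker, was the exception among the leukocyte genes at 161 to 218 FPKM.

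Entry into mitosis is driven by the kinase CDK1 bound to cyclin B, which is held inactive until CDC25 phosphatases remove inhibitory phosphates. Mitotic kinases and kinesin motors then build the spindle, kinetochores tie chromosomes to it, and the spindle checkpoint delays separation until every chromosome is attached, after which the anaphase-promoting complex (APC/C) marks cyclin B and securin for destruction and the cell divides. The genes are transcribed mainly in G2 and M, under repression by the DREAM complex in resting cells and activation by B-MYB and FOXM1 in cycling ones, and many of their promoters are known for a short element called CHR (cell cycle genes homology region) placed downstream of CCAAT boxes.

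Promoter sequence from RefSeq (GRCm38.p6, the assembly named mm10), reaching 250 bases before and 50 bases after the annotated start, was matched for 33 of the 40 genes; 7 had no entry. CHR letters, TTTGAA or TTCGAA on either strand, stood in the window of 25 of the 33 genes (75.8%), against 15.8% of 8574 genes with a promoter entry and at least 1 FPKM in 1 column and 21.7% of all 27025 genes with an entry. Counting only bases before the start, the number was 11 (33.3%), against 14.0% of the expressed genes. CCAAT on either strand was found in 25 (75.8%), against 43.3% and 41.1%, and both kinds of letters in 1 window in 22 (66.7%), against 6.72% and 8.61%. The CHR letters lay close to the start: within 50 bases on either side they were present in 23 of the 33 (69.7%), against 4.28% of the expressed genes, a window chosen after the positions were seen. A CCAAT ending at most 50 bases before such a CHR was present in 17 (51.5%), against 0.945%. E2F letters on either strand (either TTCCCGC or else TTGGCGC or else TTCGCGC, where TTGGCGC can overlap a reversed CCAAT) were in 5 of 33 (15.2%), against 17.6% of expressed genes. The letters of a full GR element, an AGAACA followed after any 3 bases by a TGTTCT, were in 0 of 33 and in 3 of the 27025. Letters this rare would be absent from nearly any set of 33 genes, so the 0 does not set these apart. Looser matches and more distant sequence were not searched. In 32 of the 35 windows of the 33 genes the last 25 bases were found in an annotated transcript of the same gene. For Aurka, Kif2c and Mad2l1 they were not.

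**Figure D1:**
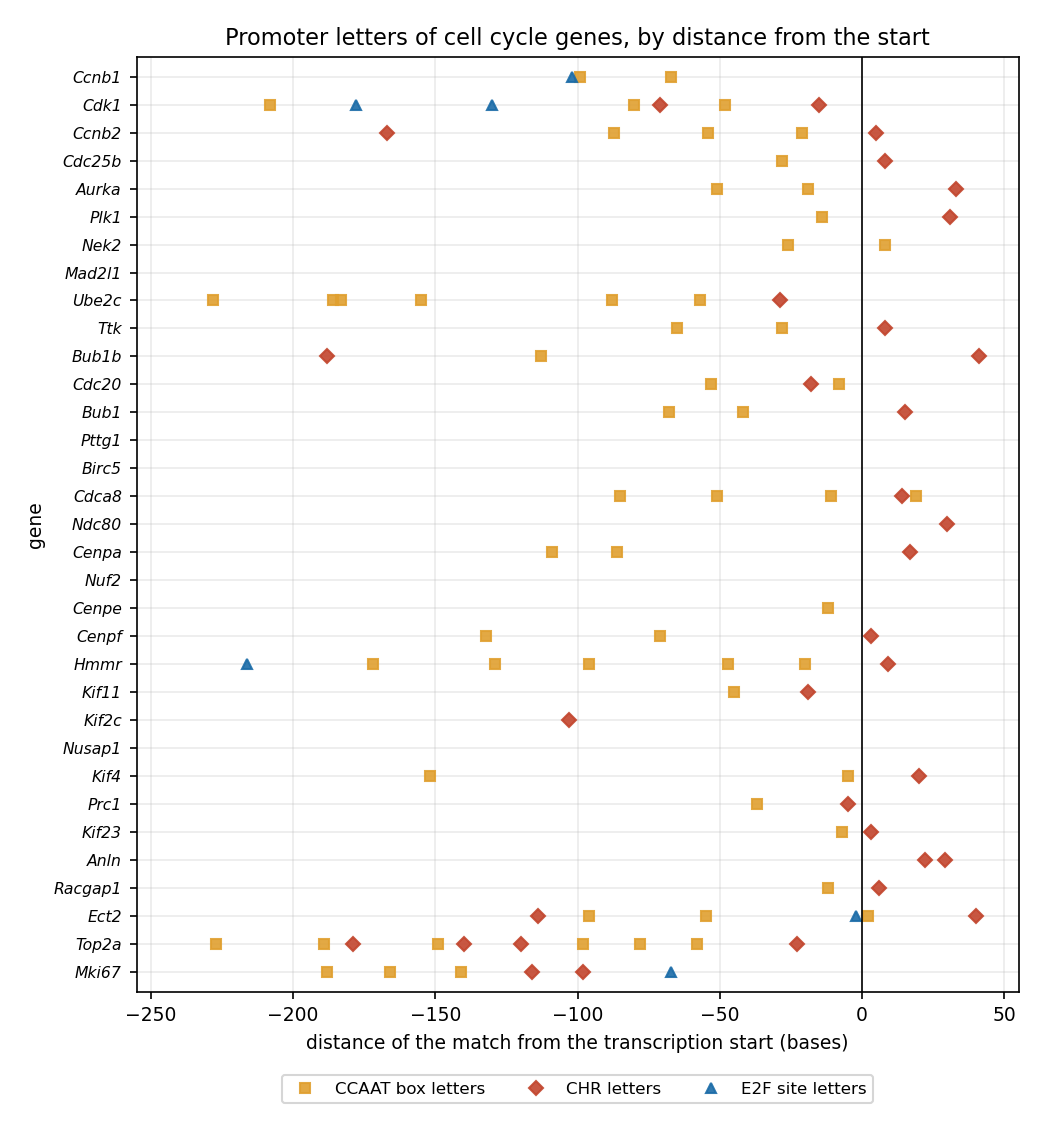
Positions of CHR, CCAAT and E2F letters in the promoters of 33 mitosis and cytokinesis genes, 1 row per gene, as the distance in bases of each match from the annotated transcription start (vertical line). CHR letters (diamonds) gather around the start, and in 17 of the 33 genes a CCAAT (square) ends at most 50 bases before a CHR lying within 50 bases of the start; 5 genes have no match of any kind in the window drawn.

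The 120 bases before the start are shown for 6 genes, to set genes that were lower with GR siRNA beside genes that were nearly level; capitals mark CHR letters (TTTGAA or TTCGAA, or TTCAAA where read on the other strand) and CCAAT boxes (CCAAT, or ATTGG on the other strand). The first 4 come from the motor gene Kif11 (chr19:37376262-37376381, plus strand), the kinase gene Cdk1 (chr10:69352913-69353032, minus strand, last 26 bases annotated as exon in GENCODE), the APC/C activator Cdc20 (chr4:118437344-118437463, minus strand, last 9 bases annotated as exon) and the topoisomerase gene Top2a (chr11:99024190-99024309, minus strand).
Kif11: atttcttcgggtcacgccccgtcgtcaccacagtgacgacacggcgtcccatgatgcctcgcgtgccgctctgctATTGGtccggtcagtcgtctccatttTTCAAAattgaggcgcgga
Cdk1: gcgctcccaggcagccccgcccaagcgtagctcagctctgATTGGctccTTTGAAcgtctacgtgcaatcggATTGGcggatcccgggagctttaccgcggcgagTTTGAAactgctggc
Cdc20: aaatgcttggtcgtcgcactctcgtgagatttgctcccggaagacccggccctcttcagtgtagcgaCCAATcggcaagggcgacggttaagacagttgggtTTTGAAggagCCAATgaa
Top2a: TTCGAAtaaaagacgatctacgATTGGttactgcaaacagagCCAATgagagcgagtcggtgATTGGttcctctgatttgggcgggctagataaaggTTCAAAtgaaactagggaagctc
The other two come from the exchange factor gene Ect2 (chr3:27153879-27153998, minus strand) and the proliferation marker Mki67 (chr7:135716380-135716499, minus strand), whose CHR letters in this stretch begin at −114 (Ect2) and at −116 and −98 (Mki67) from the start, while Ect2 has a further match after the start, at 40.
Ect2: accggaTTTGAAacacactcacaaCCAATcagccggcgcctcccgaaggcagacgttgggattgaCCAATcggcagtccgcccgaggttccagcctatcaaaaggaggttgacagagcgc
Mki67: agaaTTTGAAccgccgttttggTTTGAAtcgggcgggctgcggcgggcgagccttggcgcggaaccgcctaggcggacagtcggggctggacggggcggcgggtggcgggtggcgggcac
The 6 stretches are picked examples, and other genes differ from them. Kif2c, with differences of −0.42 without DEX and −0.37 with DEX, has its only CHR letters at −103. The Kif2c window lies inside the annotated gene, however, and its end was not found in an annotated transcript of Kif2c. Cdc25b, with both GR siRNA columns above both controls, has CHR letters at 8. Counted from the other listed start of Ect2, its match after the start lies at 16. GR siRNA minus control siRNA had, without DEX, a median of −0.32 on the log2(FPKM + 1) scale in the 25 genes with CHR letters and −0.42 in the 8 without. With DEX the medians were −0.25 and −0.32. The 25 include Aurka and Kif2c and the 8 include Mad2l1, whose windows lack transcript support.

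The set had a median level above that of all genes in every column, and the median was lower in the GR siRNA columns, though single members such as Cenpf and Cdc25c lay below the median of all genes. The median level of the 40 genes was 46.5 and 43.7 FPKM in the control siRNA columns without and with DEX, and 34.6 and 35.1 FPKM in the matching GR siRNA columns. The median over 11445 genes with at least 1 FPKM in 1 column was between 14.2 and 14.5 FPKM. Summed, the 40 genes made up 0.389% and 0.382% of the FPKM in the control columns, and 0.328% and 0.316% in the GR siRNA columns. RNA from a culture was pooled over its cells, so fewer cells in G2 and M and less of these mRNAs per cell cannot be told apart.

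**Figure D2:**
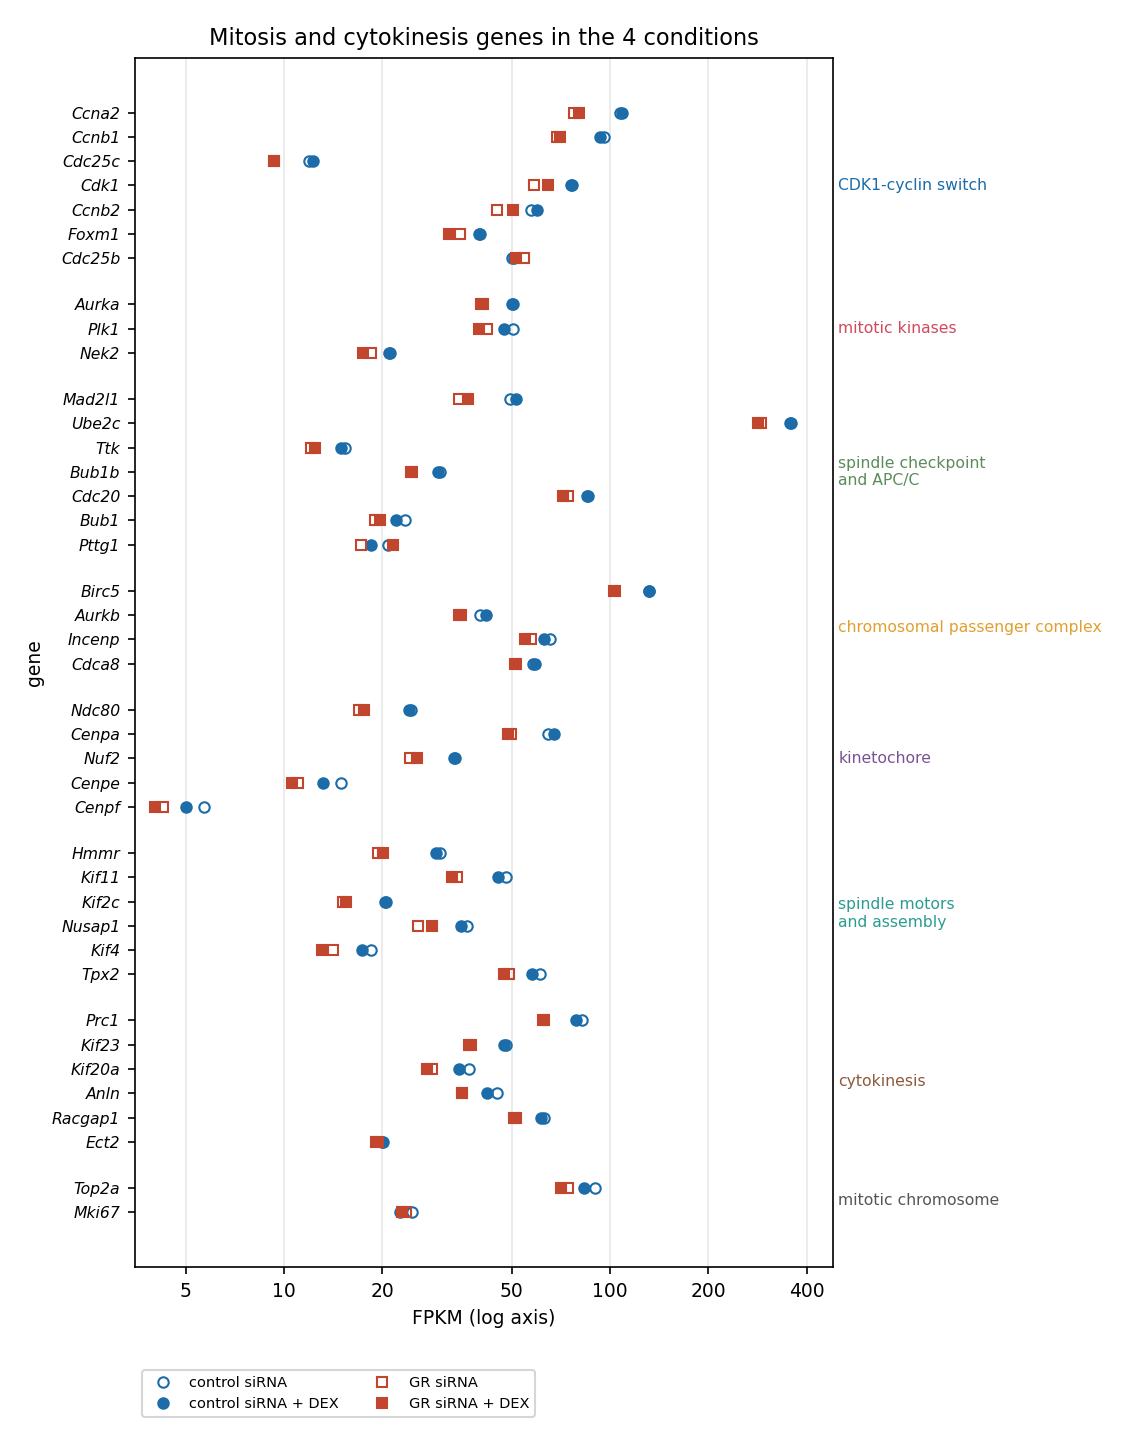
FPKM (log axis) of the 40 mitosis and cytokinesis genes, grouped by role, 1 point for each condition: GR siRNA is drawn as squares and control siRNA as circles, filled where DEX was present and open where it was absent. In nearly every row squares lie left of circles, while open and filled symbols of 1 shape lie close together; Pttg1 and Mki67 are mixed and Cdc25b has its squares on the right.

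For 37 of the 40 genes both GR siRNA columns lay below both control siRNA columns, against 36.6% of all genes with at least 1 FPKM. Cdc25b alone lay above in both (32.3% of all genes), and Pttg1 and Mki67 overlapped. Without DEX 39 of 40 were lower with GR siRNA (52.8% of 11325 genes tested) and with DEX 37 of 40 (51.8% of 11344). The differences were small. At 1.2-fold on the log2(FPKM + 1) scale 29 were lower without DEX (12.6% of genes tested) and 21 with DEX (12.1%), 20 of them in both states (8.10%), and 0 were 1.2-fold higher in either (10.7% in each). At 1.5-fold 1 gene, Hmmr, was lower without DEX (2.54%), 0 were lower with DEX (2.62%), and 0 were higher in either (2.36% in each). The median difference was −0.33 without DEX and −0.28 with DEX, against −0.01 over all genes tested in each state, and the SD among the 40 genes was 0.14 in each. Rescaling the columns to equal sums or equal upper quartiles left 19 genes past 1.2-fold without DEX, where 8.42% and 8.35% of all genes then passed, in place of 29. Rescaling also moved the balance of all calls without DEX from 53.9% lower to 34.7% in each case.

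A fit over all 4 columns, added after the data were seen, took siRNA and DEX as additive terms (limma). A gene's own error was the disagreement of its siRNA difference between the DEX states, with 1 residual degree of freedom. Limma drew this error towards a trend shared by all genes, which weighed as much as 2.75 degrees of freedom (median). The standard errors thus rest more on other genes than on the gene's own agreement between DEX states. The p-values of the fit speak of these 4 columns and not of replicate cultures. In it 34 of the 40 genes were lower with GR siRNA at a Benjamini-Hochberg adjusted p under 0.05 over 11445 genes (11.7% of all genes), and 0 were higher (9.45%). The smallest adjusted p was 0.014 (Mad2l1 and Hmmr), and the limma fit gave Hmmr a difference of −0.56 with a standard error of 0.046. The 6 genes that did not pass were Cdca8 (limma adjusted p = 0.052), Bub1 (0.060), Cdc25b (0.33), Ect2 (0.44), Mki67 (0.78) and Pttg1 (0.89). After rescaling to equal sums 29 of the 40 were lower by the same fit and after upper quartile rescaling 28, with 0 higher in both. Over all genes the calls of the fit then changed from 1338 lower and 1082 higher to 1140 lower and 1651 higher with equal sums.

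**Figure D3:**
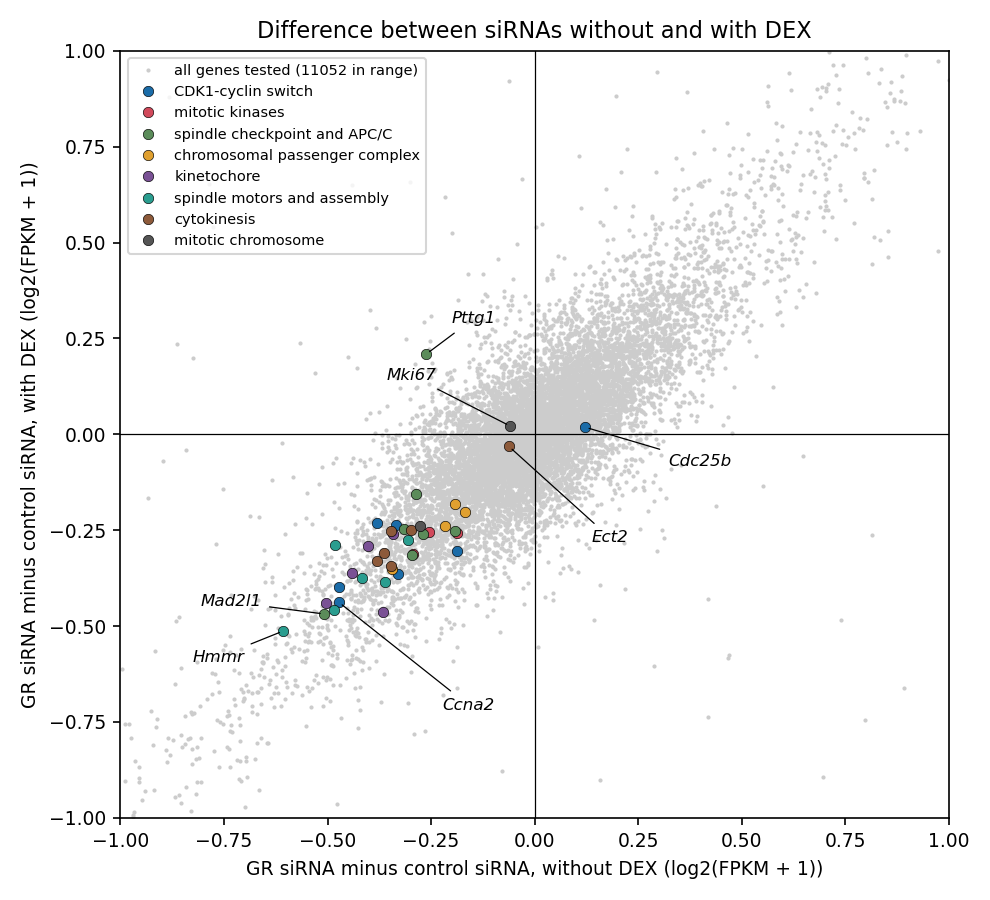
Difference between GR siRNA and control siRNA without DEX (horizontal axis) and with DEX (vertical axis), both on log2(FPKM + 1); grey points are all genes tested within 1 of zero, coloured points the 40 mitosis and cytokinesis genes by role. Most coloured points lie in the lower left quadrant between −0.61 and −0.16 on each axis, and Pttg1, Mki67, Ect2 and Cdc25b stand apart near or across zero.

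The cyclins and the CDK1 switch were lower with GR siRNA, apart from one phosphatase. Cyclin A2 (Ccna2, chromosome 3, 36564865 to 36572150), which acts from S phase into early mitosis, was 107.5 and 109.1 FPKM with control siRNA (without and with DEX, the order kept throughout), against 77.2 and 80.2 FPKM with GR siRNA. Of its exon bases 12.5% overlap a gene on the opposite strand. Cyclin B1 (Ccnb1, chromosome 13, 100778650 to 100786570), the main partner of CDK1 at mitotic entry, was 95.5 and 93.0 FPKM against 68.5 and 70.4 FPKM. Of its 31-base words 27.7% also occur in other genes, mostly processed copies, so its level is uncertain. The second B-type cyclin, Ccnb2, was 57.0 and 59.5 FPKM against 45.0 and 50.4 FPKM. The catalytic subunit Cdk1 (chromosome 10, 69335146 to 69352938) was 76.5 and 75.8 FPKM against 58.5 and 64.4 FPKM. These 4 genes had both GR siRNA columns below both controls, as did 36.6% of all genes with at least 1 FPKM. The differences ran from −0.47 (Ccna2 and Ccnb1) to −0.33 (Ccnb2) without DEX and from −0.44 (Ccna2) to −0.23 (Cdk1) with DEX.

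Of the phosphatases that activate CDK1, Cdc25c was 11.96 and 12.32 FPKM with control siRNA and 9.31 and 9.35 FPKM with GR siRNA. A gene on the opposite strand overlaps 12.7% of its exon bases. Cdc25b (chromosome 2, 131186949 to 131198497), which starts the activation in G2, was 49.9 and 50.7 FPKM against 54.4 and 51.4 FPKM. It was the only one of the 40 with both GR siRNA columns above both controls, and its differences were 0.12 and 0.02. Foxm1, the transcription factor that drives many of the other genes, was 39.7 and 39.9 FPKM against 34.8 and 32.1 FPKM, a difference of −0.19 without DEX and −0.30 with DEX. Of the 7 genes in this role 5 were 1.2-fold lower without DEX (12.6% of all genes tested) and 4 with DEX (12.1%).

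The 3 mitotic kinases outside the checkpoint were also lower in both states. Aurka, which matures centrosomes and spindle poles, was 50.29 and 50.04 FPKM with control siRNA against 40.8 and 40.1 FPKM with GR siRNA. Plk1, the polo-like kinase that acts from mitotic entry to cytokinesis, was 50.3 and 47.4 FPKM against 42.0 and 39.5 FPKM (14.8% of its 31-base words occur in other genes). Nek2, a centrosome kinase, was 21.12 and 21.05 FPKM against 18.4 and 17.5 FPKM. Only Aurka among them passed 1.2-fold on the log2(FPKM + 1) scale, in both states (−0.29 and −0.31). With DEX Nek2 was 1.21-fold lower in plain FPKM, but −0.26 on that scale.

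In the spindle checkpoint and the APC/C, Mad2l1 had the largest difference in both states, and Pttg1 was the 1 gene higher with GR siRNA when DEX was present. Mad2l1 (chromosome 6, 66535390 to 66547220), whose protein holds CDC20 inactive at unattached kinetochores, was 49.3 and 51.3 FPKM with control siRNA against 34.4 and 36.8 FPKM with GR siRNA, and its differences were −0.51 and −0.47. The checkpoint kinases were lower by less, with Bub1 at 23.4 and 22.1 FPKM against 19.0 and 19.7 FPKM, and Ttk at 15.3 and 15.0 FPKM against 12.1 and 12.5 FPKM. The checkpoint protein Bub1b was 30.1 and 29.6 FPKM against 24.8 and 24.6 FPKM. Each of these 4 genes had both GR siRNA columns below both controls, as did 36.6% of all genes with at least 1 FPKM.

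Ube2c, the ubiquitin-conjugating enzyme of the APC/C and the most abundant of the 40 by FPKM, was 357 and 354 FPKM against 291 and 285 FPKM; 22.8% of its exon bases overlap a gene on the opposite strand. Cdc20, the APC/C activator, was 84.9 and 85.3 FPKM against 74.2 and 71.5 FPKM, with 25.5% of its 31-base words shared with other genes. Securin (Pttg1, chromosome 11, 43420250 to 43426251), the inhibitor of separase that the APC/C destroys at anaphase, had no common direction. It was 20.8 FPKM without and 18.5 FPKM with DEX in control siRNA cells, and 17.2 and 21.5 FPKM in GR siRNA cells, so the highest and the lowest of its values were the GR siRNA columns.

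The chromosomal passenger complex, which corrects faulty attachments and later directs cytokinesis, was lower in all 4 subunits, mostly by less than 1.2-fold. Survivin (Birc5), its centromere-binding subunit, was 132 and 132 FPKM with control siRNA against 104 and 103 FPKM with GR siRNA (−0.34 and −0.35). The kinase Aurkb was 40.1 and 41.5 FPKM against 34.4 and 35.0 FPKM. Its scaffold Incenp was 65.3 and 62.5 FPKM against 57.03 and 54.97 FPKM, and borealin (Cdca8) was 58.0 and 58.8 FPKM against 51.5 and 50.9 FPKM. Birc5 was the 1 subunit past 1.2-fold in each state (12.6% and 12.1% of all genes tested). The median over the 4 was −0.20 without DEX and −0.22 with DEX.

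Kinetochore genes were lower throughout. On the log2(FPKM + 1) scale all 5 were past 1.2-fold without DEX (12.6% of all genes tested) and 4 of 5 with DEX (12.1%). Ndc80 (chromosome 17, 71496100 to 71526857) and Nuf2 encode partners in the complex that grips microtubules. Ndc80 was 24.5 and 24.2 FPKM with control siRNA against 17.0 and 17.6 FPKM with GR siRNA, and Nuf2 was 33.4 and 33.2 FPKM against 24.3 and 25.6 FPKM. The centromeric histone Cenpa was 64.5 and 67.5 FPKM against 49.8 and 48.6 FPKM. The kinetochore motor Cenpe was 14.9 and 13.2 FPKM against 11.1 and 10.6 FPKM. Cenpf, a large kinetochore protein of G2 and M, had the lowest level of the 40, with 5.69 and 5.01 FPKM against 4.28 and 4.02 FPKM. With DEX Cenpf was 1.25-fold lower in plain FPKM, but its −0.26 on the log2(FPKM + 1) scale fell just short of 1.2-fold. Medians over the 5 genes were −0.40 and −0.36.

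The genes of spindle motors and spindle assembly had the largest median differences of the 8 roles, −0.45 without DEX and −0.38 with DEX. All 6 were 1.2-fold lower in both states (8.10% of all genes tested in both). Hmmr (chromosome 11, 40701395 to 40733422), which helps to organise spindle poles, was 30.1 and 29.2 FPKM with control siRNA against 19.4 and 20.2 FPKM with GR siRNA. Its differences of −0.61 and −0.51 were the largest of the 40 in each state. Kif11 (chromosome 19, 37376403 to 37421859), the kinesin that pushes spindle poles apart, was 47.9 and 45.5 FPKM against 34.0 and 32.8 FPKM. Nusap1, a microtubule-bundling protein, was 36.4 and 34.9 FPKM against 25.8 and 28.4 FPKM.

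Kif2c, a kinesin that takes microtubules apart, was 20.5 and 20.4 FPKM with control siRNA against 15.1 and 15.5 FPKM with GR siRNA. The chromosome-bound kinesin Kif4 was 18.5 and 17.4 FPKM against 14.2 and 13.1 FPKM, and 15.1% of its exon bases overlap a gene on the opposite strand. Tpx2, which activates Aurora A on the spindle, was 60.9 and 57.5 FPKM against 49.1 and 47.3 FPKM. All 3 had both GR siRNA columns below both controls (36.6% of all genes with at least 1 FPKM).

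Of the 6 cytokinesis genes 5 were 1.2-fold lower without DEX (12.6% of all genes tested) and 3 with DEX (12.1%). Prc1, which bundles the microtubules of the central spindle, was 82.2 and 78.8 FPKM with control siRNA against 62.8 and 62.4 FPKM with GR siRNA. A gene on the opposite strand overlaps 11.1% of its exon bases. The motor Kif23 and its partner Racgap1 form the centralspindlin complex. Kif23 was 48.0 and 47.1 FPKM against 37.5 and 36.9 FPKM, and Racgap1 was 62.5 and 61.3 FPKM against 50.7 and 51.4 FPKM. Kif20a, a motor that carries the passenger complex to the midzone, was 36.8 and 34.4 FPKM against 28.4 and 27.5 FPKM, with 29.3% of its exon bases under a gene on the opposite strand. Anillin (Anln), a scaffold of the contractile ring, was 45.0 and 42.0 FPKM against 35.2 and 35.2 FPKM.

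Ect2, the exchange factor that centralspindlin recruits to switch on RhoA, differed least among them. It was 20.1 and 19.9 FPKM with control siRNA against 19.2 and 19.5 FPKM with GR siRNA, a difference of −0.06 and −0.03. Of the 2 genes of the mitotic chromosome, Top2a, the topoisomerase that untangles sister DNA, was 90.1 and 83.4 FPKM against 74.2 and 70.6 FPKM. The proliferation marker Mki67 was 24.6 and 22.7 FPKM against 23.6 and 23.0 FPKM, so its groups overlapped and its difference was −0.06 without DEX and 0.02 with DEX.

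DEX moved the 40 genes little in either siRNA arm. In control siRNA cells the median difference between DEX and no DEX was −0.02 (−0.0051 over all genes tested), 30 of 40 were lower (52.6% of 11227 genes), and the values ran from −0.17 (Cenpe) to 0.06 (Cenpa). After upper quartile rescaling the members' median was 0.07, where that of all genes was 0.083. None of the 40 was 1.2-fold lower (1.21% of genes tested) or higher (1.35%), and 0 were 1.5-fold lower (0.392%) or higher (0.686%). In GR siRNA cells the median was −0.01 (−0.0047 over all genes tested), 23 of 40 were lower (51.9% of 11310 genes), 0 were 1.2-fold lower (1.41%), and 1, Pttg1, was 1.2-fold higher at 0.31 (2.34%), a call that was lost with a pseudocount of 5 and after rescaling to equal sums. At 1.5-fold 0 were lower (0.645%) and 0 higher (0.531%). The next largest was Ccnb2 at 0.16. The DEX and siRNA comparisons share columns, so a chance high or low value in one column enters both. In the additive limma fit 0 of the 40 were lower with DEX at an adjusted p under 0.05 (0.00874% of genes) and 0 higher (0.0175%), and 0 had an unadjusted p under 0.05.

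**Figure D4:**
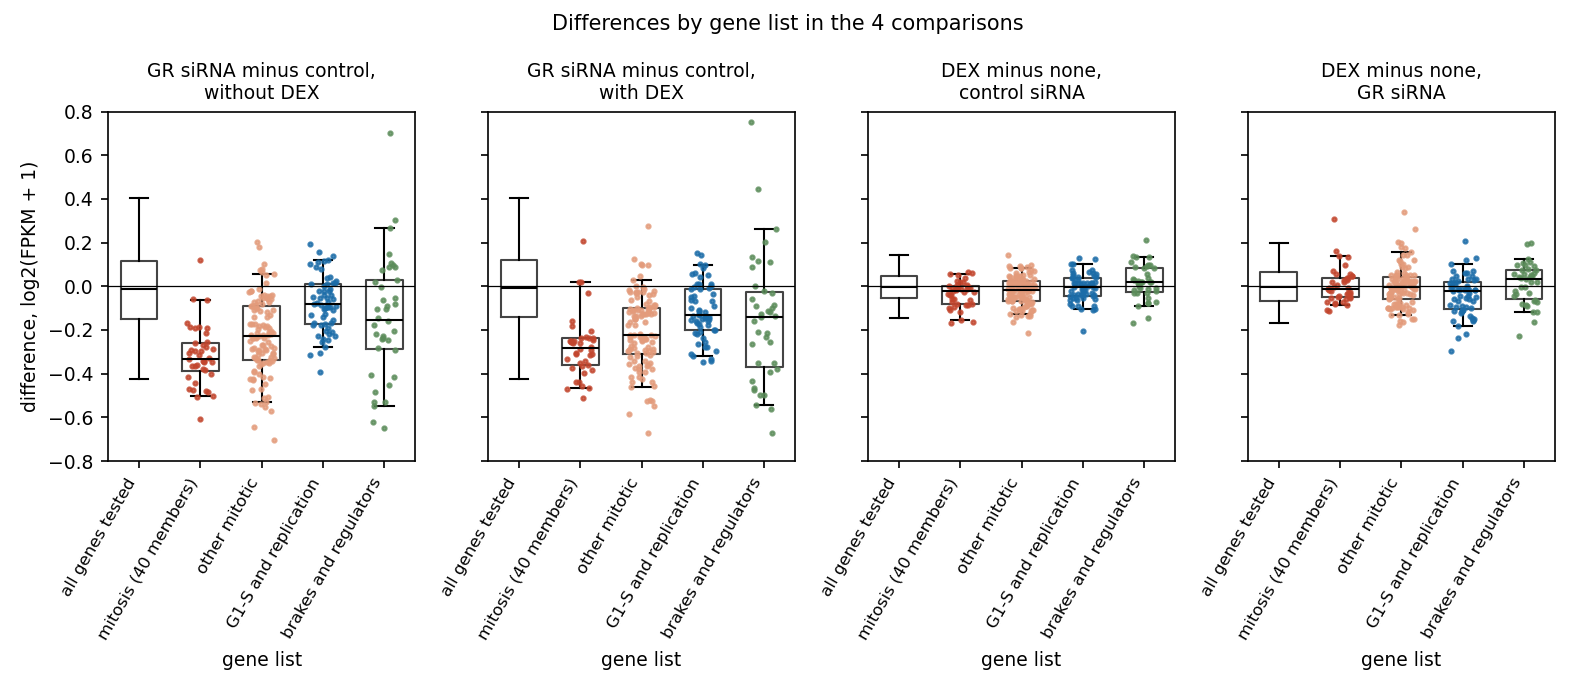
Difference on log2(FPKM + 1) in the 4 comparisons for all genes tested, the 40 mitosis and cytokinesis genes, other mitotic genes, G1-S and replication genes, and cell cycle brakes and regulators. Points are genes, boxes span the quartiles with the median as a line, and whiskers reach the 5th and 95th percentiles; the 40 genes centre at −0.33 and −0.28 in the siRNA comparisons and at −0.02 and −0.01 in the DEX comparisons.

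A further 110 mitotic genes outside the 40 (other kinetochore and centromere proteins, condensins, APC/C subunits, kinesins and regulators) had medians of −0.23 and −0.22. Lower with GR siRNA by any amount were 101 without DEX and 102 with DEX, where the shares over all genes tested were 52.8% and 51.8%. At 1.2-fold 47 and 40 were lower (12.6% and 12.1% of all genes tested), and 0 and 1 were higher (10.7% in each). The 6 largest differences that kept their sign were in Oip5, Cenpq, Cdkn3, Cdca5, Dlgap5 and Troap, from −0.70 to −0.48 without DEX and from −0.67 to −0.42 with DEX. Oip5, which helps to load CENP-A at centromeres, was 13.6 and 13.4 FPKM with control siRNA against 7.99 and 8.05 FPKM with GR siRNA. Sororin (Cdca5), which secures sister chromatid cohesion, was 27.9 and 28.3 FPKM against 19.8 and 18.5 FPKM. Both had the GR siRNA columns below both controls (36.6% of all genes with at least 1 FPKM).

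Genes of the G1-S transition and DNA replication had medians nearer that of all genes. Of 60 measured, 44 were lower without DEX and 47 with DEX, where the shares over all genes tested were 52.8% and 51.8%. At 1.2-fold 4 and 9 were lower, where the shares over all genes tested were 12.6% and 12.1%. The medians were −0.08 and −0.13. The 6 named by rank were Asf1b, Gmnn, Mcm10, Cdk6, Ticrr and Gins4, from −0.39 to −0.18 without DEX and from −0.35 to −0.24 with DEX. Geminin (Gmnn), an inhibitor of re-replication that the APC/C destroys in mitosis, was 42.4 and 45.6 FPKM with control siRNA against 33.9 and 35.7 FPKM with GR siRNA. The histone chaperone Asf1b was 30.8 and 30.6 FPKM against 23.3 and 24.1 FPKM. Whether the mitotic and the replication genes differ from each other was not tested, since each has 1 value per condition.

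Cell cycle brakes and regulators of the DREAM and B-MYB complexes were lower more often than higher, with exceptions. Of the 39 genes 38 reached 1 FPKM in a column compared (Myb did not). Lower by any amount were 27 without DEX and 29 with DEX, where the shares over all genes tested were 52.8% and 51.8%. At 1.2-fold 11 and 13 were lower (12.6% and 12.1% of all genes tested), and 3 and 3 were higher (10.7% in each). The medians were −0.15 and −0.14. The p53 target Cdkn1a, which encodes the CDK inhibitor p21, was 92.8 and 99.2 FPKM with control siRNA against 59.996 and 61.8 FPKM with GR siRNA, and Ccng1, another p53 target, was 26.0 and 25.5 FPKM against 16.2 and 17.8 FPKM. The inhibitor of CDK4 and CDK6 Cdkn2c was 37.9 and 37.6 FPKM against 25.9 and 26.8 FPKM. Lower values thus stood among inhibitors of the cycle as well as among the mitotic genes.

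The anti-proliferative gene Btg1 went the other way, with 36.4 and 36.9 FPKM against 59.8 and 63.0 FPKM. Cyclin G2 (Ccng2), which is high in resting cells, was 7.04 and 7.81 FPKM against 4.88 and 5.05 FPKM. Lin52, a core subunit that the DREAM and B-MYB complexes share, was 4.98 and 5.46 FPKM against 3.09 and 3.37 FPKM.

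Several other values moved with the siRNA, and their part in these differences was not tested. The summed level of the 12 fibroblast and mural markers was 8.26 and 7.90 FPKM with control siRNA and 14.6 and 13.02 FPKM with GR siRNA, with Acta2 at 5.65 and 5.60 against 8.82 and 7.71 FPKM and Dcn at 0.387 and 0.297 against 1.99 and 2.73 FPKM. The sum of the 10 endothelial markers was 2683 and 2692 FPKM against 2429 and 2367 FPKM. In each state 2 of the 10 were 1.2-fold lower (12.6% and 12.1% of all genes tested): Cldn5 at 493 and 525 against 368 and 332 FPKM, and Egfl7 at 521 and 516 against 424 and 410 FPKM. The 10 leukocyte markers summed to 177 and 161 FPKM against 195 and 219 FPKM, nearly all of it Cd68, and the 10 lung epithelial markers to 4.98 and 4.74 FPKM against 6.18 and 5.08 FPKM.

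The 7-base words TTCTGAA and TCTGAAA were singled out in earlier results on these columns. The shares below come from the same data and are no separate evidence. They make no allowance for the length of the 3′ untranslated region. Without DEX 17.8% of 3325 genes with either word in their longest annotated 3′ untranslated region were 1.2-fold lower, against 9.18% of 7045 genes without, and with DEX the shares were 17.3% and 8.73%. Of the 40 mitosis and cytokinesis genes 11 hold such a word and 29 do not, against 3325 and 7045 of all genes tested without DEX. Among the 11 are Hmmr, Mad2l1, Ndc80, Ccna2, Ccnb1 and Cdk1, but also Ect2 and Mki67. These 11 had medians of −0.38 without DEX and −0.35 with DEX, with 8 and 6 of them 1.2-fold lower. The 29 genes without either word had medians of −0.31 without DEX and −0.28 with DEX, with 21 and 15 of them 1.2-fold lower. Of these 29 genes 27 had both GR siRNA columns below both controls, as did 36.6% of all genes with at least 1 FPKM. Whether the words have a part in the differences was not tested.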

How the data were processed

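RNA was sequenced from 4 conditions of mouse lung endothelial cells. The deposited values are FPKM per gene, made by the authors with TopHat2 and Cuffdiff on mm10, per the submitters' processing notes. Not given in the sources used here are versions, annotation, strand setting and what was done with replicates. These values keep no read counts, and depth is unknown beyond the relative values given. The scale of a difference is log2(FPKM + 1), which makes those of low genes smaller, and a gene was tested if either column compared reached 1 FPKM. Each comparison of 2 columns was described without a test, with genes counted at 1.2-fold and 1.5-fold. An additive fit of siRNA and DEX over the 4 columns on the same scale (limma 3.58.1 in R 4.3.3, empirical Bayes with a trend, Benjamini-Hochberg adjustment) was added after the data were seen.

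The 40 genes and the other lists (all 209 symbols of the 3 comparison lists were found, 6 symbols over all lists by an older name) were chosen with earlier results of these data known. Outside the 40, the 6 genes of each list with the largest mean difference of 1 sign were eligible for naming. Coordinates, exon overlap and shared 31-base words came from GENCODE M21 (GRCm38), promoters from RefSeq. Scripts used Python 3.11.15, numpy 2.4.6 and pandas 2.3.3, and the counting and the fit were tested on simulated data. Alternatives were other pseudocounts, filters and scalings.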

Additional observations from a re-analysis of the deposited data

Results flagged for a closer look

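Securin (Pttg1) was singled out because its difference between the siRNAs ran in opposite directions in the 2 DEX states, by at least 0.1 on the log2(FPKM + 1) scale in each: −0.26 without DEX and 0.21 with DEX, which are 0.47 apart. The same 4 values give a DEX difference of −0.16 in control siRNA cells and 0.31 in GR siRNA cells, again 0.47 apart. The contrast was not tested, since each condition has 1 value. Pttg1 was not alone among mitotic genes in its DEX difference in GR siRNA cells. Of the 110 other mitotic genes 2 were 1.2-fold higher there (2.34% of all genes tested), the largest at 0.34.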

How the results depend on the processing

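Each condition has 1 column, so no replicate could be left out. The median siRNA difference of the 40 genes stayed below zero under all 7 planned and 2 added alternatives, from −0.34 to −0.26 without DEX and from −0.30 to −0.25 with DEX. Dropping the filter on low values or raising it to 5 FPKM kept all 40 genes in both siRNA comparisons. Those alternatives could therefore not move these medians. The number 1.2-fold lower without DEX dropped from 29 to 19 after rescaling to equal sums and to 19 after upper quartile rescaling, while with DEX it was 28 after the latter, where 13.2% of all genes were 1.2-fold lower against 12.1% before. The 1 gene (Pttg1) that was 1.2-fold higher with DEX in GR siRNA cells became 0 with a pseudocount of 5 and 0 after rescaling to equal sums, and the median DEX difference in control siRNA cells turned to 0.07 after upper quartile rescaling, which put that of all genes at 0.083. After either rescaling 36 genes kept both GR siRNA columns below both controls. CHR letters were in 11 promoters (33.3%) when only bases before the start counted, against 14.0% of expressed genes. In the added additive fit 28 to 34 of the 40 were lower under its 6 alternatives. Leaving out 9 genes that share 10% or more of their 31-base words or exon bases with other genes, an alternative added after the data were seen like that on 3′ untranslated regions, gave medians of −0.32 and −0.26 and 22 and 14 genes 1.2-fold lower.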
